A study of Plutella xylostella with 12 samples.

Results

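The 5 miRNAs described here are pxy-miR-8495-5p, pxy-miR-8495-3p, pxy-miR-8496-3p, pxy-miR-8521a-3p and pxy-miR-8521b-3p of *Plutella xylostella*, the diamondback moth, whose larvae feed on cabbage and related crops. They were chosen by name from the number range described from this moth, with earlier results of these data known. They are 5 of 105 miRNA names in the files. Whole 3rd instar larvae of the Waite strain, an insecticide-susceptible population, had survived chlorantraniliprole, a diamide that opens ryanodine receptors and so releases calcium in insect muscle. Small RNA was sequenced 6 h or 24 h after exposure to 0.01 ppm, called the low dose, or to 0.1 ppm, called the high dose, in 3 biological replicates for each of the 4 groups, 12 libraries in all. All larvae were exposed and alive at collection, and the unexposed control larvae that the labels mention were not analysed here, so each difference below is between doses or between times. In RNA from whole bodies, a change in the cells that make a miRNA and a change in its amount per cell cannot be told apart.

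A miRNA is cut from a hairpin precursor, and either arm of the hairpin, 5p or 3p, can be loaded into an Argonaute protein and guide it to messenger RNAs. Arms of 1 hairpin are transcribed together, so a difference in their amounts arises after transcription. Read counts of the arms also depend on how well each is captured in the library. Letters after a number, as in pxy-miR-8521a-3p and pxy-miR-8521b-3p, mark mature miRNAs of closely related sequence from different precursors. Reads of a miRNA commonly differ by a base or so at their ends. No function is given here for these miRNAs, since none is stated in the sources used here.

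Between doses, pxy-miR-8496-3p was 2.96-fold higher at the high than at the low dose after 24 h. Its level in the low-dose group at 24 h was the lowest of the 4 groups, and at the high dose it did not pass between times. Between times, in larvae given the low dose, pxy-miR-8496-3p fell 2.18-fold from 6 h to 24 h whereas pxy-miR-8521a-3p rose 1.96-fold. The call on this fall was lost in the highest row alone, in the 2 highest rows and with only the compared libraries fitted, among other settings. That on the rise was lost with rows under 10 counts dropped and without low-dose replicate 3 at 6 h. The sum for pxy-miR-8521b-3p was 2.83-fold higher at 24 h and passed as well, but its call was lost in the highest row alone and in DESeq2. Its log2 difference turned from 1.50 to -0.11 when unlisted rows were filled at 4 counts. At the low dose the libraries at 6 h are shallower than those at 24 h, so a fixed fill weighs more in them. Neither arm of pxy-miR-8495 passed the test in any comparison. These values rest on the sum of several rows per name. Minor rows, all but the highest and with an unlisted row taken as 0, held most of each change in CPM. At the low dose between times they held 75.1% for pxy-miR-8521a-3p, 82.9% for pxy-miR-8521b-3p and 85.1% for pxy-miR-8496-3p. Between doses at 24 h they held 82.4% for pxy-miR-8496-3p. On the log2 scale, the change in pxy-miR-8521a-3p was of like size in its highest row. Those in pxy-miR-8496-3p and pxy-miR-8521b-3p were smaller there.

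**Figure D1:**
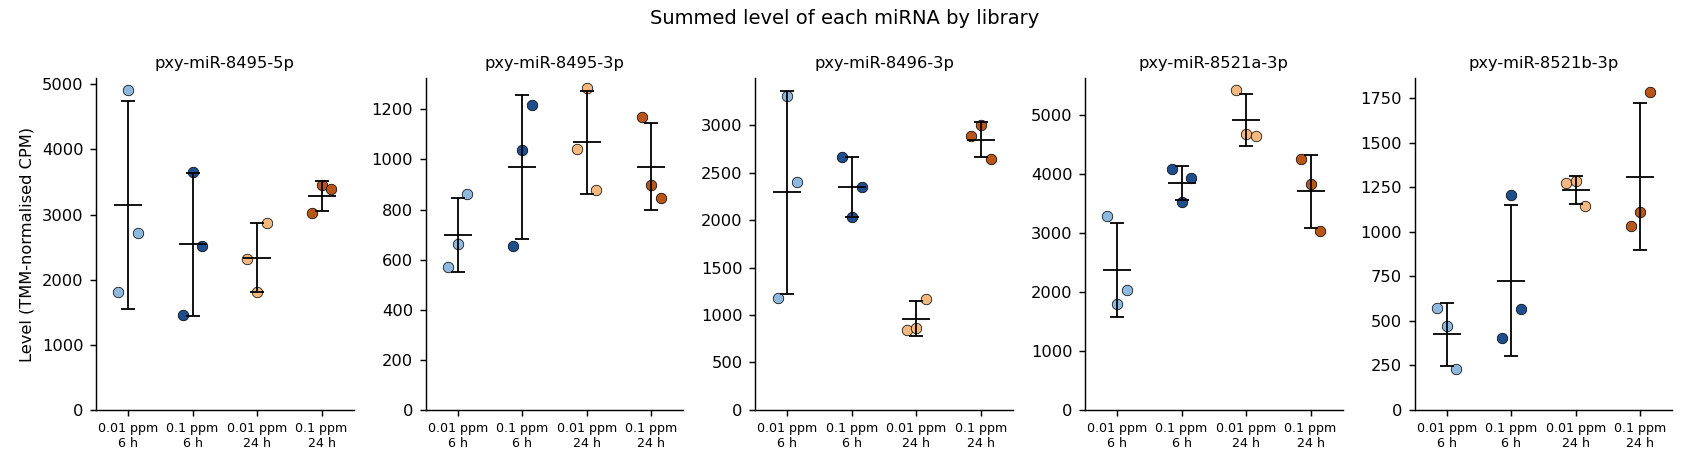
Level of each miRNA in each library, in TMM-normalised CPM on a linear axis that starts at 0, by dose and time. Points are libraries in the order of replicates 1 to 3, and bars give the mean and SD of 3 libraries. For pxy-miR-8496-3p the 3 low-dose libraries at 24 h, with a mean of 958 CPM, lie below the 3 high-dose libraries, with a mean of 2850 CPM.

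Each library held between 10714 counts, in low-dose replicate 2 at 6 h, and 41214 counts, and the second shallowest library, high-dose replicate 1 at 6 h, held 19692. The 5 miRNAs together took 0.802% to 1.35% of the counts of a library. Several rows of a file can carry 1 name, and no source used here states how such rows differ. The 5 names filled 218 of 3390 rows, and no file holds a row under 5 counts. Between 9.09% and 84.6% of their rows in a library held fewer than 10 counts, the latter in the shallowest library, where such rows carried 61.9% of their counts. A row that a library does not list may thus have been present with up to 4 counts. Without the 2 shallowest libraries the 6 calls given below all passed, at log2 values of 1.67, -0.88 and 1.27 for pxy-miR-8496-3p between doses at 24 h, between times at the low dose and for the difference of the dose effects, 0.79 and -0.81 for pxy-miR-8521a-3p in the last 2 of these, and 1.47 for pxy-miR-8521b-3p between times at the low dose.

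All 5 miRNAs were listed in all 12 libraries and had enough counts to be tested. By mean share of the counts pxy-miR-8521a-3p ranked 27th of the 105 names, at 0.368% ± 0.0923 (SD, n = 12), and was the most abundant of the 5. It was followed by pxy-miR-8495-5p at 0.284% ± 0.0998 and pxy-miR-8496-3p at 0.215% ± 0.0956. The least abundant were pxy-miR-8495-3p at 0.0922% ± 0.0204 and pxy-miR-8521b-3p at 0.0921% ± 0.0484, which did not differ beyond their spread. Read counts of different miRNAs also depend on how well each is captured in the library, so this order is one of counts. Over all libraries the highest row of a name held 26.3% of the counts of pxy-miR-8521a-3p and 36.3% of those of pxy-miR-8496-3p, which were the second and the fourth lowest shares among the 57 names listed in all libraries. It held 55.2% for pxy-miR-8521b-3p, 61.1% for pxy-miR-8495-3p and 75.6% for pxy-miR-8495-5p, against a median of 73.2% over the 57 names.

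Levels of pxy-miR-8496-3p were lowest in low-dose larvae after 24 h. Its summed counts were 39, 35 and 53 in the low-dose replicates 1 to 3 at 6 h, 53, 49 and 58 in the high-dose replicates at 6 h, 29, 33 and 44 in the low-dose replicates at 24 h, and 84, 114 and 119 in the high-dose replicates at 24 h. Scaled to a common library size, these gave 2295 ± 1072 CPM (SD, n = 3) for the low and 2353 ± 317 CPM for the high dose at 6 h, and 958 ± 184 CPM for the low and 2850 ± 182 CPM for the high dose at 24 h. The low-dose group at 6 h spread widely, from 1170 CPM in replicate 1 to 3310 CPM in replicate 2, and the group means of low dose at 6 h, high dose at 6 h and high dose at 24 h did not differ beyond that spread.

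After 24 h the high-dose libraries all lay above the low-dose libraries for pxy-miR-8496-3p, with a log2 fold change of 1.56 ± 0.26 SE (adjusted p = 0.000343 by Benjamini-Hochberg over 73 names, edgeR quasi-likelihood test). It was the 1 call among the 5 miRNAs in this comparison, in which 16.4% of all 73 names passed, 6.85% higher and 9.59% lower. Non-overlapping groups were found for 3 of the 5 miRNAs and for 41.1% of all names. After 6 h the log2 difference between doses was 0.16 ± 0.27, with a 95% interval of -0.42 to 0.73, and did not pass. From 6 h to 24 h the log2 difference was -1.13 ± 0.29 at the low dose (adjusted p = 0.014), where the highest library at 24 h (1170 CPM) stood just below the lowest at 6 h (1174 CPM), and it was 0.28 ± 0.25 at the high dose (adjusted p = 0.622). The dose effect itself differed between times by 1.40 ± 0.38 (adjusted p = 0.019, interaction term), a test that 8.22% of the names passed, 2.74% with a higher and 5.48% with a lower value. That call was lost when either replicate 3 at 6 h was left out, to 1.34 without the low-dose and 1.50 without the high-dose one, whereas the dose call at 24 h passed with each of the 12 libraries left out in turn (log2 1.51 to 1.80).

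**Figure D2:**
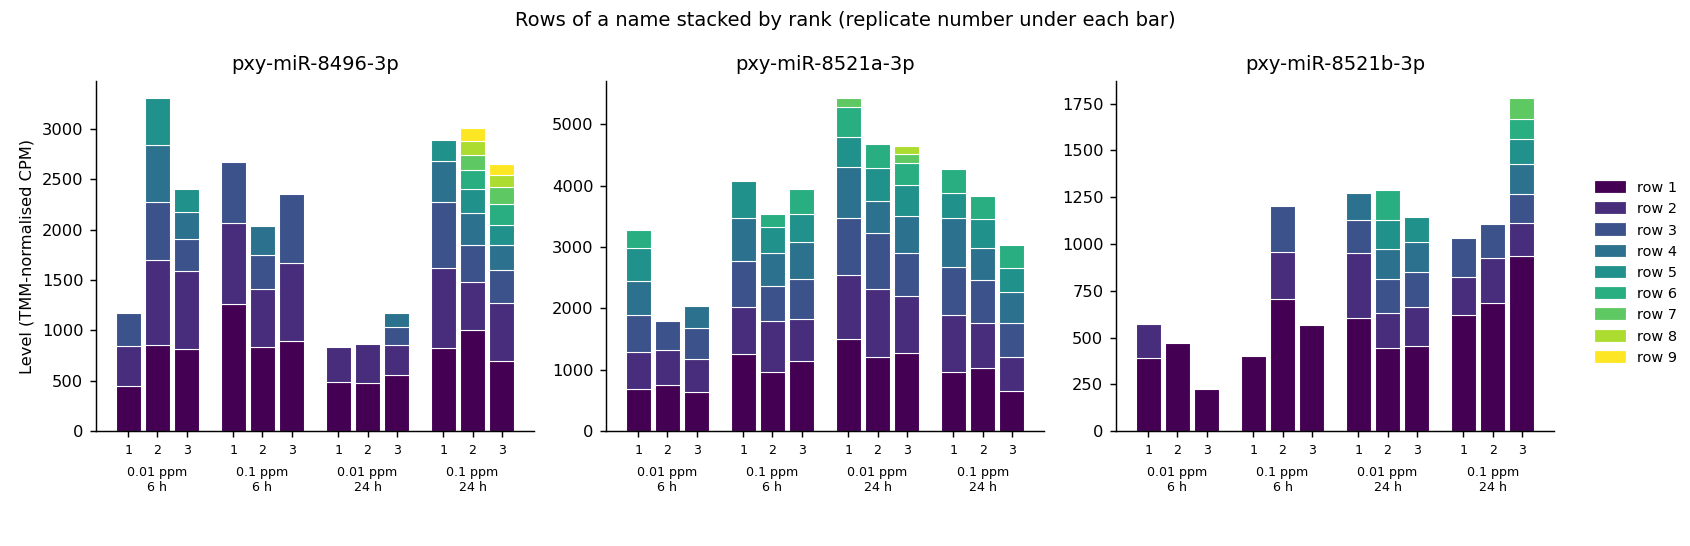
Rows of 3 miRNAs in each library, stacked from the highest row (row 1) upwards and scaled to TMM-normalised CPM, with the replicate number under each bar and the dose and time below. Row ranks are set within each library, so rows of 1 rank need not be the same sequence. For pxy-miR-8496-3p the low-dose libraries at 24 h list 2 to 4 rows and the high-dose libraries 5 to 9, while the highest row differs less.

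The rows show what made up this difference. In low-dose larvae at 24 h the rows of pxy-miR-8496-3p held 17 and 12 counts in replicate 1, 18 and 15 in replicate 2, and 21, 11, 7 and 5 in replicate 3. In high-dose larvae at 24 h they held 24, 23, 19, 12 and 6 counts in replicate 1, 9 rows from 38 down to 5 in replicate 2, and 9 rows from 31 down to 5 in replicate 3. The highest row thus stood at 508 ± 45.1 CPM (SD, n = 3) in the low-dose and 840 ± 157 CPM in the high-dose libraries, without overlap, and the second row at 344 ± 50.7 and 615 ± 161 CPM, also without overlap. The third row was listed in 1 of 3 low-dose libraries, at 186 CPM, and in all 3 high-dose libraries, at 452 ± 175 CPM. The sixth to the ninth row were listed in 2 of the high-dose and in none of the low-dose libraries.

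Of the difference of 1891 CPM between doses at 24 h, the highest row accounted for 332 CPM, or 17.6%, and the minor rows (all rows but the highest) for 82.4%. Minor rows alone stood at 451 ± 141 CPM in low-dose and 2010 ± 51.5 CPM in high-dose larvae, a log2 fold change of 2.14 ± 0.32 (adjusted p = 8.89e-05, edgeR, 50 names tested, of which 10% passed). The same fit gave -1.61 ± 0.37 for minor rows from 6 h to 24 h at the low dose (adjusted p = 0.00494), where 26% of names passed, and 2.17 ± 0.47 for the difference of the dose effects (adjusted p = 0.00387), where 6% passed. With only the highest row of every name counted, the dose difference at 24 h was 0.84 and still passed (adjusted p = 0.0249), whereas the fall at the low dose (-0.40, adjusted p = 0.461) and the difference of the dose effects (0.25, adjusted p = 0.81) did not. The highest row held 53.6% ± 5.50 of the counts in low-dose larvae at 24 h against 29.3% ± 3.70 in high-dose larvae at 24 h and 32.7% ± 6.46 in low-dose larvae at 6 h. Each of these differences had an exact permutation p of 0.1, the smallest that 3 against 3 libraries allow, and an adjusted p of 0.273 over 30 such tests. The minor-row values and the shares take an unlisted row as 0. At 24 h the low-dose libraries listed 2 to 4 rows and the high-dose libraries 5 to 9. With unlisted rows filled at 4 counts, the summed dose difference at 24 h was 0.87, against 0.84 in the highest row alone. Minor rows alone were not fitted with such a fill.

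An unlisted row is not a row at 0, and a higher level brings more rows past 5 counts. A fill of 4 counts per unlisted row does not depend on depth, so in CPM it weighs more in a shallow library. When each library was credited with 4 counts for every row of pxy-miR-8496-3p by which it fell short of the 9 rows listed at most, the dose difference at 24 h was 0.87 and passed (adjusted p = 0.0122), the fall at the low dose was -0.87 and passed (adjusted p = 0.0299), and the difference of the dose effects was 0.72 and did not pass (adjusted p = 0.204). With the 2 highest rows alone these were 0.75 (adjusted p = 0.0342), -0.56 (adjusted p = 0.177) and 0.33 (adjusted p = 0.725). With only the compared libraries fitted, the fall at the low dose was -1.15 and did not pass (adjusted p = 0.0663, edgeR). With rows under 10 counts dropped, the dose difference at 24 h was 1.46 and no longer passed (adjusted p = 0.0916). Its adjusted p ran from 1.25e-13 to 0.0916 over the settings other than leaving out a single library. Over the same settings that of the fall at the low dose ran from 0.000144 to 0.877 and that of the difference of the dose effects from 0.000728 to 0.85.

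**Figure D3:**
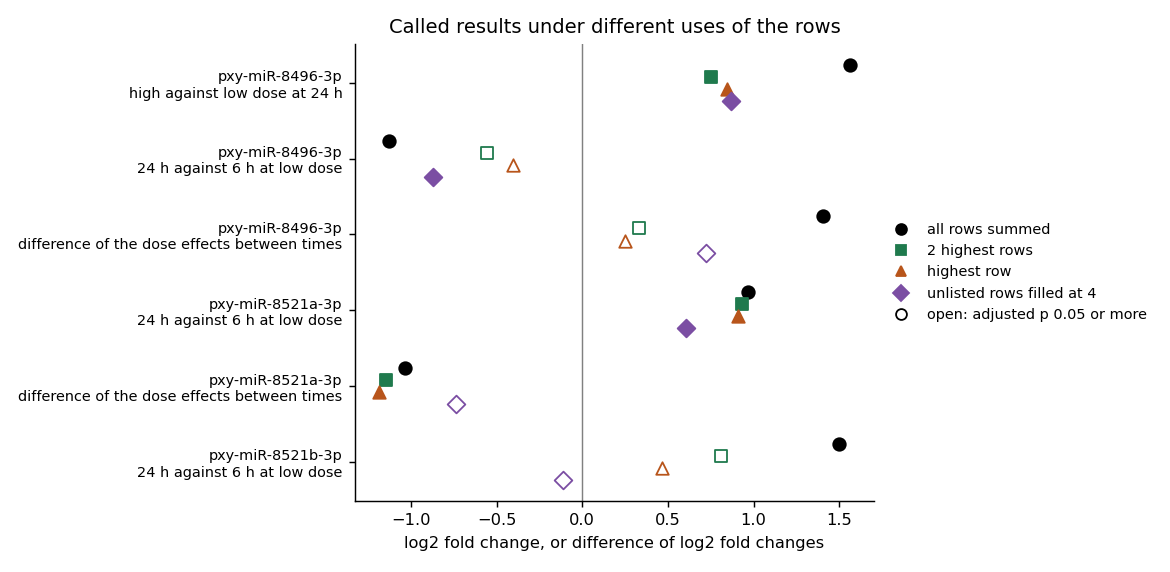
Log2 fold changes of the called results, or differences of log2 fold changes between times, with all rows summed, with the 2 highest rows, with the highest row alone, and with unlisted rows filled at 4 counts. Filled symbols have an adjusted p under 0.05. The difference of pxy-miR-8496-3p between doses at 24 h passes in all 4 versions, at 1.56, 0.75, 0.84 and 0.87, while the difference of pxy-miR-8521b-3p from 6 h to 24 h passes with all rows summed and not in the other versions.

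Levels of pxy-miR-8521a-3p were lowest in low-dose larvae after 6 h. They were 3282, 1797 and 2039 CPM in low-dose replicates 1 to 3 at 6 h, from 109, 19 and 45 counts. They were 4080, 3532 and 3937 CPM in the high-dose replicates at 6 h, 5434, 4675 and 4654 CPM in the low-dose replicates at 24 h, and 4264, 3828 and 3030 CPM in the high-dose replicates at 24 h. The mean of low-dose larvae was 2372 ± 797 CPM (SD, n = 3) at 6 h and 4921 ± 444 CPM at 24 h, without overlap between these groups. High-dose larvae lay between, at 3850 ± 285 CPM after 6 h and 3707 ± 626 CPM after 24 h, which overlapped each other.

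From 6 h to 24 h at the low dose pxy-miR-8521a-3p rose by a log2 of 0.97 ± 0.19 SE (adjusted p = 0.00175, edgeR), in a comparison where 2 of the 5 miRNAs were called higher and 1 lower and where 19.2% of all names passed, 13.7% higher and 5.48% lower. Its highest row went from 694 ± 61.2 to 1329 ± 154 CPM, and that row and the minor rows both lay higher in all 3 libraries at 24 h than in any at 6 h. The change was 0.91 when only the highest row was counted (adjusted p = 0.00876), 0.93 with the 2 highest rows, 0.61 with unlisted rows filled at 4 counts, and 0.96 ± 0.22 in the minor rows alone (adjusted p = 0.00494). Minor rows held 75.1% of the CPM difference. The call was lost without low-dose replicate 3 at 6 h (0.75, adjusted p = 0.0525), and with rows under 10 counts dropped (1.27, adjusted p = 0.117). Its adjusted p ran from 0.000144 to 0.117 over the settings other than leaving out a single library. The call on the minor rows was also lost without low-dose replicate 3 at 6 h (0.79). At the high dose the difference between times was -0.06 ± 0.19, with a 95% interval of -0.45 to 0.33, and did not pass.

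Between doses, pxy-miR-8521a-3p did not pass at either time: the log2 difference was 0.62 ± 0.20 SE after 6 h (adjusted p = 0.139) and -0.42 ± 0.18 after 24 h (adjusted p = 0.12), with the groups not overlapping at either time. After 6 h 1.37% of all names passed and 15.1% did not overlap. The first value passed without low-dose replicate 1 at 6 h (0.97) or with upper quartile factors (0.79), and the second passed with the 2 highest rows (-0.56). The difference between the dose effects did pass, at -1.03 ± 0.27 (adjusted p = 0.016), opposite in sign to that of pxy-miR-8496-3p. It did not pass when 1 of 5 libraries was left out, at values of -0.96 to -0.84: either replicate 3 at 6 h, replicate 1 or 2 of the low dose at 24 h, and replicate 3 of the high dose at 24 h. It was also lost with library totals (-0.68), upper quartile factors (-0.83) and DESeq2 (-0.96), among other settings. Its adjusted p ran from 0.00683 to 0.284 over the settings other than leaving out a single library.

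Counts of pxy-miR-8521b-3p were low at 6 h: 19, 5 and 5 in the low-dose replicates 1 to 3 and 8, 29 and 14 in the high-dose replicates. They were 44, 49 and 43 in the low-dose and 30, 42 and 80 in the high-dose replicates at 24 h. In low-dose replicates 2 and 3 at 6 h the name stood in a single row of 5 counts, the lowest value that the files hold. Group levels were 424 ± 178 CPM (SD, n = 3) for the low and 725 ± 423 CPM for the high dose at 6 h, and 1234 ± 78.7 CPM and 1307 ± 413 CPM at 24 h. The 2 groups at 24 h overlapped, as did the 2 at 6 h.

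From 6 h to 24 h at the low dose the log2 difference of the summed pxy-miR-8521b-3p was 1.50 ± 0.41 SE and passed (adjusted p = 0.0209, edgeR), with all 3 libraries at 24 h above those at 6 h. At the high dose the difference was 0.84 ± 0.37 (adjusted p = 0.194), and between doses at 6 h it was 0.76 ± 0.46 (adjusted p = 0.448). Neither passed. The highest row was 364 ± 126 CPM in low-dose larvae at 6 h and 502 ± 91.1 CPM at 24 h, with overlap, so that 82.9% of the difference between times lay in the minor rows. Low-dose libraries listed 1 to 2 rows of this name at 6 h and 4 to 6 at 24 h, where the minor rows held 5 to 12 counts each. The log2 difference was 0.47 in the highest row (adjusted p = 0.511), 0.81 in the 2 highest rows (adjusted p = 0.198) and -0.11 with unlisted rows filled at 4 counts up to the 7 rows listed at most (adjusted p = 0.844). The adjusted p of the sum ran from 0.00123 to 0.844 over the settings other than leaving out a single library. In the minor rows alone the log2 difference was 2.98 ± 0.91 (adjusted p = 0.0194), a value that depends on a single row of 6 counts at 6 h, in low-dose replicate 1. That call was lost without low-dose replicate 3 at 6 h (2.42) or replicate 2 (2.87) or 3 (3.03) at 24 h. Without low-dose replicate 1 at 6 h the value was 7.44, which is not a measured fold, since the low-dose group at 6 h then lists no minor row. The call on the sum was lost without any 1 of the low-dose libraries at 24 h or without low-dose replicate 3 at 6 h (1.09 to 1.43), and in DESeq2 (1.44, adjusted p = 0.0571).

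The sums of pxy-miR-8521a-3p and pxy-miR-8521b-3p both passed between times at the low dose, the latter with the limits just given, in a comparison where 35.6% of all names had non-overlapping groups and 4 of the 5 miRNAs did. How reads that match both were counted is not stated, so the split between these near relatives is uncertain. The log2 ratio of the counts of pxy-miR-8521a-3p to those of pxy-miR-8521b-3p, which does not depend on how libraries are scaled, ran from 0.77 to 3.34. Its mean was 2.55 over the 6 libraries collected at 6 h and 1.76 over the 6 collected at 24 h, which differ by -0.79 (exact stratified permutation p = 0.075, two-sided, 6 against 6 libraries, adjusted p = 0.45 over 12 tests). It turned to 0.35 with rows held to a common relative floor, so no change of the ratio was shown. The share of pxy-miR-8521b-3p in its highest row was 87.8% on average at 6 h and 49.4% at 24 h (exact stratified permutation p = 0.015, adjusted p = 0.273 over 30 tests). At 6 h, 4 of the 6 libraries list a single row of it, and these libraries are shallower than those at 24 h.

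**Figure D4:**
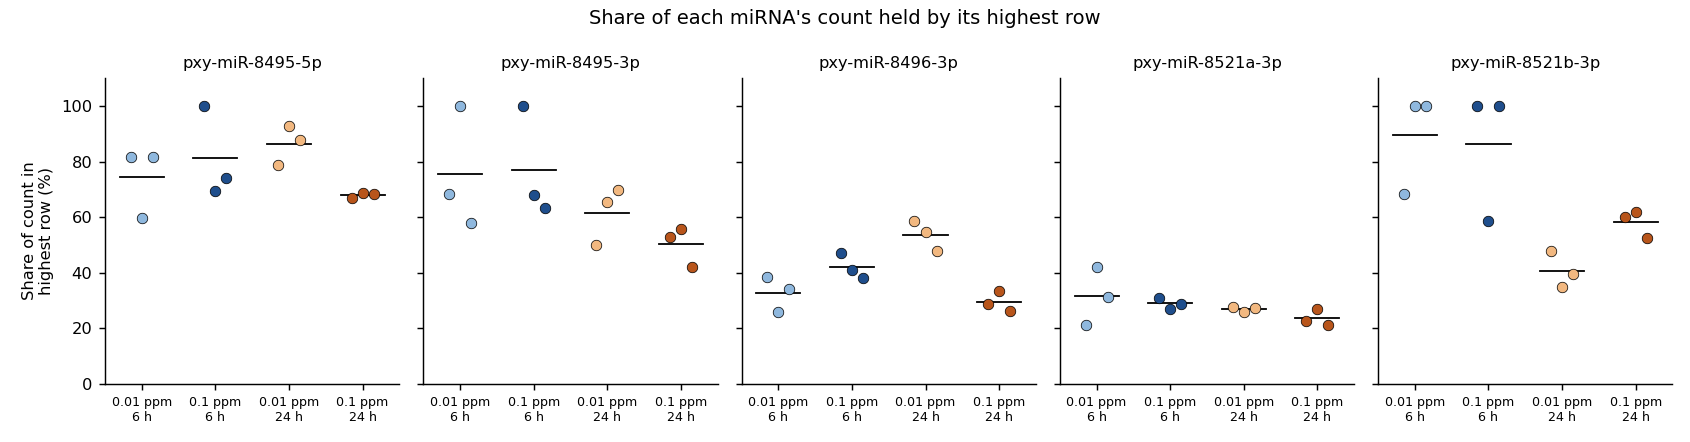
Percent of the counts of each miRNA that its highest row holds, by library, dose and time, with group means as lines. A value of 100% is a library that lists a single row. For pxy-miR-8495-5p the high-dose libraries at 24 h lie between 67.0% and 68.7%, below the low-dose libraries at 24 h.

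Neither arm of pxy-miR-8495 passed the test, though some of the group values did not overlap. The 5p arm stood at 3148 ± 1599 CPM (SD, n = 3) for the low and 2545 ± 1098 CPM for the high dose at 6 h, and at 2332 ± 530 and 3290 ± 232 CPM at 24 h. Its summed counts at 6 h were 60, 52 and 60 in low-dose replicates 1 to 3, so that the 4918 CPM of replicate 2, the shallowest library, came from 52 counts. The dose difference was -0.15 ± 0.31 at 6 h, with a 95% interval of -0.81 to 0.50, and it was 0.27 without that library and 0.12 without high-dose replicate 1 at 6 h. At 24 h the summed counts were 80, 69 and 108 in the low-dose and 88, 131 and 152 in the high-dose replicates. The groups at 24 h did not overlap, and the log2 difference of 0.50 ± 0.28 (adjusted p = 0.275) did not pass. It did pass when only the 6 libraries at 24 h were fitted (0.61, adjusted p = 0.0115) and without the 2 shallowest libraries (0.61, adjusted p = 0.00247), as well as with upper quartile factors (0.87). Its adjusted p ran from 0.00247 to 0.42 over the settings other than leaving out a single library.

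The minor rows of pxy-miR-8495-5p stood further apart at 24 h than its highest row. The highest row was 2010 ± 453 CPM in low-dose and 2240 ± 186 CPM in high-dose larvae, with overlap, whereas the minor rows were 323 ± 181 and 1050 ± 45.9 CPM, without overlap. Minor rows thus held 75.9% of the difference. In the low-dose libraries they summed to 17, 5 and 13 counts, and in the high-dose libraries to 29, 41 and 48. Their log2 difference of 1.71 ± 0.63 did not pass (adjusted p = 0.0866), though it did with library totals (1.94) and without either of the 2 shallowest libraries (1.71 each). The share in the highest row was 86.5% ± 7.12 in low-dose and 68.1% ± 0.887 in high-dose larvae at 24 h, without overlap (exact permutation p = 0.1, the smallest possible, adjusted p = 0.273).

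The 3p arm, pxy-miR-8495-3p, ran from 7 to 49 counts per library. Its level was 698 ± 148 CPM for the low and 970 ± 288 CPM for the high dose at 6 h, and 1068 ± 206 and 971 ± 173 CPM at 24 h. The difference between doses at 6 h was 0.50 ± 0.34 (adjusted p = 0.487), and that between times at the low dose was 0.63 ± 0.33 (adjusted p = 0.213), in which the groups did not overlap. Neither passed, and neither did under any alternative run. The share in its highest row was 76.3% on average at 6 h and 56.0% at 24 h (exact stratified permutation p = 0.04, adjusted p = 0.273). The 2 shallowest libraries, both at 6 h, listed a single row, of 7 counts at the low and 13 counts at the high dose. Their share was thus 100%, while the other libraries at 6 h ran from 57.9% to 68.4%. Those at 24 h ran from 42.1% to 69.7%.

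In each of the 12 libraries the 5p arm of pxy-miR-8495 had more counts than the 3p arm, by a log2 ratio of 0.49 to 2.89. The mean ratio was 1.71 for 6 h and 1.45 for 24 h, which differ by -0.26 (exact stratified permutation p = 0.525, adjusted p = 0.678). In the ratio of highest rows the difference was 0.17.

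Counted over the 5 miRNAs, edgeR called none between doses at 6 h (1 at an unadjusted p under 0.05, and DESeq2 called none with 1 at that level), 1 higher between doses at 24 h, 2 higher and 1 lower between times at the low dose, none between times at the high dose (1 unadjusted; DESeq2 none, with 0 unadjusted) and 2 for the difference of the dose effects, 1 in each direction. At an unadjusted p under 0.05 edgeR had 13 of all 73 names between doses at 6 h and 14 between times at the high dose. At the high dose 6.85% of all names passed between times, 2.74% higher and 4.11% lower, and 20.5% had non-overlapping groups, but none of the 5 did. Their median log2 fold change was 0.50 between doses at 6 h against -0.01 over all 73 names, 0.10 against -0.16 at 24 h, 0.63 against 0.07 between times at the low dose, and 0.28 against -0.01 at the high dose. These comparisons share libraries, since each group enters 2 of them besides the difference of the dose effects.

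The other 24 names of the number range, taken as 8400 up to but not including 8600, share a history of description and no stated function. Of these, 9 were tested, and edgeR called none in any of the 5 comparisons, with 2 at an unadjusted p under 0.05 between doses at 24 h, 1 between times at the low dose and 0 in the other 3. Of all 73 names, 21 were at that level between doses at 24 h and 21 between times at the low dose. In the other 3 comparisons 13 to 15 were. DESeq2, run without that filter on all 24, called none and had 0 at that level. How many of the 24 it left without an adjusted p was not counted. That the 5 miRNAs differ from these names was not tested, and the 5 were chosen with earlier results of these data known. Over the 9 tested names of the range other than the 5 miRNAs, the median log2 fold change was -0.28 between doses at 24 h. It was 0.30 between times at the low dose. The 5 miRNAs held 39.3% of the counts of the 29 names of this range, which together took 2.69% of all counts. All 12 libraries listed 10 of the 29, and 2 of the 29 appeared in only 1 library.

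Names with the most similar pattern were found by the root mean square difference of log2 CPM over the 12 libraries, each name centred on its own mean. A name with no change at all would lie at 0.69 from pxy-miR-8496-3p, 0.48 from pxy-miR-8495-5p and 0.46 from pxy-miR-8521a-3p. For pxy-miR-8521b-3p that distance is 0.84 and for pxy-miR-8495-3p 0.36, so a nearest name need not share much of a pattern. Nearest to pxy-miR-8496-3p was pxy-miR-8525-5p (0.54, against a median of 0.84 over the 72 other tested names), followed by pxy-miR-308-3p (0.59) and pxy-miR-8495-5p (0.61). Nearest to pxy-miR-8495-5p were pxy-miR-308-3p (0.38), pxy-mir-12-5p (0.40) and pxy-mir-927-5p (0.40), against a median of 0.61. The means of pxy-miR-308-3p were 1222 and 1280 CPM for the low and high dose at 6 h and 1240 and 2090 CPM at 24 h. Nearest to pxy-miR-8521a-3p was pxy-miR-10-3p (0.30), then pxy-miR-750-3p (0.30), then pxy-mir-970-3p (0.37), against 0.56. Nearest to pxy-miR-8521b-3p were pxy-miR-283-5p (0.59), pxy-let-7-5p (0.66) and pxy-mir-993-3p (0.67), against 0.90, and nearest to pxy-miR-8495-3p were pxy-mir-1175-5p (0.26), pxy-mir-184-3p (0.27) and pxy-miR-10-5p (0.27), against 0.51. Neither arm of pxy-miR-8495 was among the 3 nearest to the other, and pxy-miR-8521a-3p and pxy-miR-8521b-3p were not among the 3 nearest to each other.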

How the data were processed

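Per the labels' protocols, libraries came from total RNA by the Illumina TruSeq small RNA kit and were read to 50 nt on a HiSeq. The deposited files hold raw counts under the columns named in the file headers. Aligner, miRNA reference and filters: not given in the sources used here. Reads carry no stated molecular identifiers, so counting intervals cover counting error only. Labels call the replicates biological. Where larvae were shared, p-values measure only the spread between libraries. Replicate libraries all differed by more than sampling noise (chi-square over its degrees of freedom, 2.54 to 10.6), and none were merged.

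The rows of each name were summed, and the highest row and the remaining (minor) rows were also taken. Sums were tested in edgeR 4.0.16 (R 4.3.3) after filterByExpr (minimum count 10) with TMM factors, by quasi-likelihood, in 1 model of group means over the 12 libraries. Benjamini-Hochberg adjustment ran over 73 names, with a threshold of 0.05. Minor rows used the scaling of the sums and took an unlisted row as 0. SE is the absolute log2 fold change over the root of F. Levels are TMM-normalised CPM. Shares and ratios were compared by exact two-sided permutation, stratified where averaged. The edgeR steps were tested on simulated summed counts, for the comparison of doses at 24 h alone. The simulation had no separate rows and no lowest row count.

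Alternatives were DESeq2 1.42.0, other scalings, filters and uses of rows, the replicate block, only the compared libraries, and each library left out. The 2 highest rows, unlisted rows of the 5 miRNAs filled at 4 counts at any depth (with the scaling of the sums) and the omission of the 2 shallowest libraries were chosen after seeing the data. The 5 miRNAs and the lists were chosen with earlier results of these data known. Named were the 5, the 3 names nearest to each, and up to 3 called names of the number range per comparison. No positions are given.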

Additional observations from a re-analysis of the deposited data

Results flagged for a closer look

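For 3 values the effect of dose differed between 6 h and 24 h by a test of the difference itself (edgeR interaction term). The difference was 1.40 on the log2 scale for pxy-miR-8496-3p (adjusted p = 0.019), whose dose effect was 0.16 at 6 h and 1.56 at 24 h. It was 2.17 for the minor rows of the same miRNA, with unlisted rows taken as 0 (adjusted p = 0.00387). It was -1.03 for pxy-miR-8521a-3p (adjusted p = 0.016), whose dose effect was 0.62 at 6 h and -0.42 at 24 h. For pxy-miR-8496-3p the test passed with all rows summed and not with its highest row alone. For pxy-miR-8521a-3p it passed in both versions, at -1.03 and -1.19, but not with library totals (-0.68), upper quartile factors (-0.83), the common relative floor (-0.90), rows under 10 counts dropped (-1.28), unlisted rows filled (-0.74) or DESeq2 (-0.96), and with each library left out in turn it passed 7 of 12 times.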

How the results depend on the processing

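Depth limits these values most at 6 h, where pxy-miR-8521b-3p and minor rows stand near the lowest listed count of 5. The 40 results compared include counts of names called, which have no p. Over the other results there were 618 tested alternatives. Of these, 552 kept direction and side of the threshold, 40 lost a call, 9 gained one and 17 changed sign. The 552 include alternatives of results that did not pass in the main fit, so this total says little of how stable the calls are. Unless the setting itself leaves fewer rows or libraries, the cause was not tested. Replicate numbers did not pair the libraries: over 18 same-numbered pairs r ran from -0.36 to 0.32, with 5 over 0.1. With the replicate block, pxy-miR-8496-3p between doses at 24 h was 1.57 and no call on a summed count of the 5 miRNAs changed, while the minor rows of pxy-miR-8521b-3p between times at the low dose lost theirs (2.90). Scaling moved the median of all names by over 0.1 in several comparisons: between doses at 24 h from -0.16 to 0.06 with library totals and 0.21 with upper quartile factors, and for the difference of the dose effects from -0.04 to 0.30 and 0.18.

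Among all names, the 1 call between doses at 6 h became 0 with RLE factors, the common relative floor, rows under 10 counts dropped, the replicate block, only the compared libraries or DESeq2, 2 with library totals or the highest row, 3 with no filter, 4 with upper quartile factors, 8 without the 2 shallowest libraries, and 0 to 7 with 1 library left out. The 12 calls at 24 h became 7 with rows under 10 counts dropped and 8 to 19 with 1 library left out. The 14 calls between times at the low dose became 8 with RLE factors, the highest row or only the compared libraries, 6 with upper quartile factors or the common floor, 7 with at least 10 counts in every library, 3 with rows under 10 counts dropped, 9 in DESeq2, and 4 to 13 with 1 library left out. The 5 calls at the high dose became 3 with upper quartile factors, the common floor or rows under 10 counts dropped, and 2 to 7 with 1 library left out. The 6 calls for the difference of the dose effects became 3 with upper quartile factors or rows under 10 counts dropped, 12 without the 2 shallowest libraries, and 3 to 9 with 1 library left out.

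Of the 5 miRNAs, 1 was called between doses at 6 h with upper quartile factors, and 0 to 1 with 1 library left out. At 24 h, 2 were called with upper quartile factors, only the compared libraries, the 2 highest rows or without the 2 shallowest libraries, and 0 with rows under 10 counts dropped. Between times at the low dose, 1 was called with the highest row, the 2 highest rows or the common floor, 0 with rows under 10 counts dropped, and 1 to 3 with 1 library left out. For the difference of the dose effects, 1 was called with library totals, upper quartile factors, the highest row, the 2 highest rows or DESeq2, 0 with the common floor, rows under 10 counts dropped or unlisted rows filled, and 0 to 2 with 1 library left out.

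Sign changes were in values that did not pass, with 1 exception, pxy-miR-8521b-3p between times at the low dose, which was -0.11 with unlisted rows filled. At the high dose the same filling gave -0.034 for it. Between doses at 6 h, pxy-miR-8495-5p was 0.030 with rows under 10 counts dropped, 0.51 without the 2 shallowest libraries and -0.50 to 0.27 with 1 library left out, and pxy-miR-8496-3p ran from -0.24 to 0.51. Between times at the high dose, pxy-miR-8496-3p was -0.16 with the highest row, -0.28 with the common floor, -0.22 with the 2 highest rows and -0.15 with unlisted rows filled. In that comparison pxy-miR-8521a-3p was 0.087 with library totals, 0.12 with upper quartile factors, 0.034 with at least 10 counts in every library and -0.19 to 0.025 with 1 library left out. The change of the log2 arm ratio of pxy-miR-8495 from 6 h to 24 h was 0.17 in highest rows, and that of the log2 ratio of pxy-miR-8521a-3p to pxy-miR-8521b-3p was 0.35 with the common floor.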
